A study of Mus musculus with 12 samples.

Results

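The livers compared here came from C57BL/6J mice at 30 weeks of age that had been given drinking water only, 3 females and 3 males, each hybridised to 1 Affymetrix Mouse Genome 430 2.0 array. These control mice make up 6 of the 12 arrays of the study. The other 6, also 3 females and 3 males, came from LDC mice, which received 100 nM CdCl2 in the water from 1 week before their dams were mated, and their means did not enter the comparison of the controls, although all 12 arrays share 1 estimate of the spread. The study asked how lifelong exposure to cadmium acts on liver genes and whether the sexes differ, and control males against control females gives the difference between the sexes without cadmium. All groups are of 1 inbred strain, and the labels name no altered gene. The sources used here do not give litters, so litter mates could not be accounted for and every test treats the mice as independent. Genes of the X and Y chromosomes were left out. Of the 17401 autosomal genes named by the array, 12350 passed a filter on dim signals and were tested.

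Mouse liver is one of the organs in which males and females differ most in gene expression outside the gonads. In rodents the pituitary releases growth hormone in separated pulses in males and nearly continuously in females, and the transcription factor STAT5b carries this pattern to liver genes for cytochromes P450, sulfotransferases, carrier proteins and the major urinary proteins. Liver is also where fatty acids, triglycerides, cholesterol and bile acids are made and where steroids and drugs are cleared, which is why the metabolic lists below are ordered from lipids to bile acids, drug and steroid metabolism, and amino acid and glucose metabolism.

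Values are signals from the MAS 5.0 algorithm on a linear scale, and in each list of 3 signals the arrays stand in the order of replicates 1, 2 and 3. A difference is the mean log2 signal of control males minus that of control females, so that positive values are higher in males. Adjusted p is from limma over all probe sets tested, a gene was called at an adjusted p under 0.05, and ± after a log2 difference is its standard error. The sex labels fitted the arrays: Xist, the RNA of the inactive X chromosome, measured 16649, 18731 and 16258 in control females and 79.9, 110.3 and 125 in control males, and the Y-linked gene Eif2s3y measured 4.55, 4.12 and 1.48 in control females and 2482, 2972 and 2567 in control males. Of the 6 hepatocyte markers, 0 were called, and their summed signal ran from 251856 to 282250 in females and from 264194 to 307221 in males. Neutrophil markers were higher in females for 4 of the 6 tested, with sums of 3454 to 6478 against 1229 to 1660. Macrophage and Kupffer cell markers summed to 15858 to 40740 in females and 13140 to 13470 in males without a called member, and stellate cell markers, with 2 of 8 called, to 17201 to 29024 and 12167 to 15613. Adipocyte, pancreatic acinar and red blood cell markers went the other way, with sums of 635 to 1177, 707 to 1410 and 405 to 586 in females against 1223 to 1610, 1973 to 2504 and 2652 to 3892 in males. Of the 4, 3 and 3 markers in these sums, only 1 in each list passed the filter on dim signals. The adipocyte one was not called, the other ones were called higher in males, and that of red blood cells is not autosomal. In whole liver, fewer cells of a type and less RNA per cell cannot be told apart.

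In water-drinking mice, 482 autosomal genes (3.90% of the 12350 tested) were higher in males and 679 (5.50%) were higher in females, 1161 (9.40%) in all. The differences were mostly small beside a few extreme ones: the median fold among genes higher in males was 1.66, with 49 genes at 4-fold or more and 13 at 10-fold or more, and among genes higher in females it was 1.97, with 62 and 21 genes. The 3 arrays of one sex all lay above the 3 of the other for 472 of the 482 and 670 of the 679 called genes, and for 1369 (11.1%, males above) and 1933 (15.7%, females above) of all genes tested. At the criterion of the study's methods, a 2-fold difference with an unadjusted p under 0.05, 274 genes (2.22%) were higher in males and 606 (4.91%) in females. The share of calls higher in males was 41.5%, and it was 28.7% (322 against 799 genes) after centring each array on its median, so the balance between the sexes rests in part on the scaling.

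Among the metabolic lists, cholesterol synthesis stood at 14 of 22 members higher in females and 1 higher in males, with a median log2 difference of -1.11 beside -0.05 over all autosomal genes. Triglyceride assembly and lipid droplets had 8 of 25 and fatty acid oxidation 9 of 29 members higher in males and 0 higher in females, with medians of 0.31 and 0.38. Flavin monooxygenases, aldehyde oxidases and carboxylesterases had 9 of 18 members higher in males and 3 higher in females (median 0.62), UDP-glucuronosyltransferases 4 of 12 and 0 (0.35), and amino acid breakdown and the urea cycle 8 of 39 and 0 (0.10). In the Cyp2 enzymes, the Cyp3a list, the thioesterases, the sulfotransferases, the anion transporters and steroid metabolism, members higher in males stood beside members higher in females. Apolipoproteins, glutathione enzymes and iron and heme genes had called shares nearer to those of all genes. All counts of called list members stand beside 3.90% of all autosomal genes higher in males and 5.50% higher in females.

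**Figure D1:**
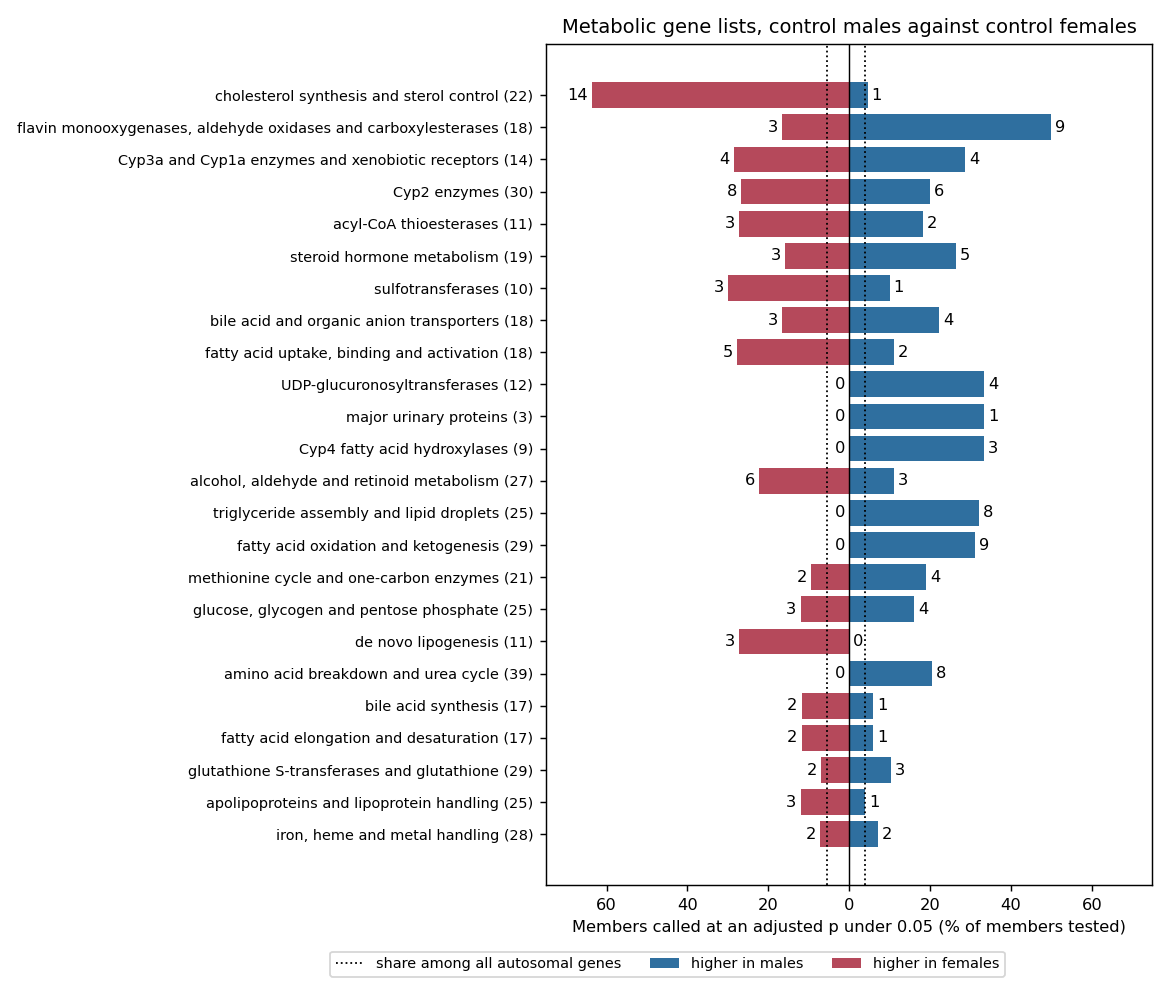
For 24 metabolic gene lists, the bars give the percentage of members called higher in control females (left) or control males (right), with the number of members called at the end of each bar, the number tested in brackets and dotted lines at the shares of all autosomal genes (5.50% and 3.90%). Cholesterol synthesis has 14 of 22 members on the female side, and 5 lists have called members on the male side only (triglycerides, fatty acid oxidation, UDP-glucuronosyltransferases, Cyp4 enzymes and amino acids), as has the single called major urinary protein.

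Among the largest differences, some genes lay near or under the filter level in 1 sex, and others, such as Cyp2d9, lay well above it in both. Cyp4a12a, a fatty acid hydroxylase known as a male enzyme of mouse liver, measured 2.84, 40.5 and 12.7 in control females and 12327, 13239 and 9393 in control males, a log2 difference of 9.99 ± 0.85 (adjusted p = 5.76e-06, limma). All female arrays lay under the signal of 48.6 at which the filter stood, and with such signals raised to that level the log2 difference was 7.89. Hsd3b5, a steroid dehydrogenase of male liver, measured 39.9, 68.8 and 9.47 in control females and 5275, 8452 and 9953 in control males, a log2 difference of 8.01 ± 0.60 (adjusted p = 1.91e-06, limma). Its females lay near or under the filter level, and the floored difference was 7.13. Elovl3, which lengthens saturated and monounsaturated very long-chain fatty acids, measured 80.1, 255 and 396 in control females and 13733, 14208 and 16533 in control males, a log2 difference of 6.20 ± 0.42 (adjusted p = 8.81e-07, limma). Here the females spread over a wide range and still stayed far under every male. Cyp2d9, a steroid hydroxylase, was the most even of these, at 640.3, 1024 and 794 in control females and 30929, 28981 and 29262 in control males, a log2 difference of 5.21 ± 0.16 (adjusted p = 1.01e-10, limma). Slco1a1, a carrier for organic anions at the sinusoidal membrane, measured 7.81, 764 and 1756 in control females and 8631, 9502 and 8737 in control males, a log2 difference of 5.35 ± 1.35 (adjusted p = 0.0251, limma). Control female 1 lay far under the other females, the floored difference was 4.47, and the call ended without control male 1, 2 or 3 (highest adjusted p = 0.0744).

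Further genes at the male end by the same rule were Scara5, a scavenger receptor that takes up ferritin (8.40 ± 0.60), Serpina4-ps1, a pseudogene of the serpin cluster (5.92 ± 1.11), Ugt2b38 (4.08 ± 0.57), the acetyltransferase-like genes Nat8f5 (3.37 ± 0.32) and Nat8 (3.10 ± 0.24), the deubiquitinase gene Usp2 (3.20 ± 0.49) and complement C6 (3.05 ± 0.24), given as log2 difference ± standard error, with adjusted p from 1.46e-06 to 0.00459. The arrays of the sexes did not overlap for any of the 24 genes of this rule, since separation was part of it. Scara5 was under the filter level in all females, and its floored difference was 5.89.

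At the female end stood enzymes that attach sulfate and carriers of organic anions. Sult3a1, a sulfotransferase with amines among its substrates, measured 3615, 14424 and 14094 in control females and 13.2, 22.2 and 15.5 in control males, a log2 difference of -9.09 ± 0.45 (adjusted p = 2.51e-08, limma), and -7.54 with floored signals. Sult2a2, of the family that sulfonates bile acids and hydroxysteroids, measured 28319.8, 14935 and 22576 in control females and 14.4, 63.3 and 83.8 in control males, a log2 difference of -8.96 ± 0.88 (adjusted p = 2.41e-05, limma). The lowest female lay more than an order of magnitude above the highest male in both cases. Slc22a26, Slc22a27 and Slc22a29, neighbouring genes for organic anion carriers, were higher in females. Slc22a26 measured 3946, 4509.9 and 5863 in control females and 109, 61.8 and 98.0 in control males (-5.76 ± 0.22, adjusted p = 1.43e-09), Slc22a27 stood at -6.37 ± 0.67 (adjusted p = 4.19e-05), or -5.01 with floored signals, and Slc22a29 at -3.81 ± 0.28 (adjusted p = 1.58e-06). Abcd2, a peroxisomal importer of very long-chain acyl-CoA, stood at -7.07 ± 0.88 (adjusted p = 0.000201) and at -4.62 with floored signals. Hao2, a peroxisomal hydroxyacid oxidase, stood at -4.57 ± 0.53 (adjusted p = 0.000103), the secreted protein gene Tafa2 at -6.10 ± 1.04 and the transcription factor gene Tcf24 at -4.27 ± 1.04. Tafa2 was under the filter level in all males and its floored difference was -3.75, that of Tcf24 was -2.86, and the call of Tcf24 ended without control female 3 (highest adjusted p = 0.0728). Many of these genes have close relatives in clusters, a probe set can take signal from a relative, and this was not tested.

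Cyp2b9 and Cyp2b13, cytochromes P450 of female mouse liver, are such a pair. Cyp2b9 measured 6729, 9798 and 6344 in control females and 120.5, 51.7 and 93.6 in control males, a log2 difference of -6.48 ± 0.32 (adjusted p = 2.51e-08, limma), and Cyp2b13 measured 4062, 10499 and 4249 in control females and 69.1, 84.0 and 34.6 in control males, a log2 difference of -6.59 ± 0.52 (adjusted p = 2.70e-06, limma). The sexes were apart by a like amount for both probe sets. The 250 bases before their starts are shown because they are nearly the same sequence: they differ at 2 of 250 positions, which are in capitals. They come from RefSeq (GRCm38.p6), Cyp2b9 at chr7:26173159-26173408 and Cyp2b13 at chr7:26061245-26061494, both on the plus strand, in the order 5′ to 3′.
Cyp2b9: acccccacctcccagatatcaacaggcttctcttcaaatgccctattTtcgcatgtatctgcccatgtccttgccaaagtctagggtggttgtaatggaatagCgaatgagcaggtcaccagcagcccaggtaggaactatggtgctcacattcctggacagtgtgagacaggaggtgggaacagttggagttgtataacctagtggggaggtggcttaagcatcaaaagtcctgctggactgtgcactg
Cyp2b13: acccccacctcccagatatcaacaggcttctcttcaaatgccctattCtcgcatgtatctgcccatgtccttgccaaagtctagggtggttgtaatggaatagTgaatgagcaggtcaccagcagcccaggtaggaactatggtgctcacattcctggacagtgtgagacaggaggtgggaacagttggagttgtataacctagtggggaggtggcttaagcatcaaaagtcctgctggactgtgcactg

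STAT5 binds the palindrome TTCNNNGAA, where N is any base, so the same window of 250 bases was searched for it on both strands. It was present in 7.02% of all 32851 windows of the RefSeq table and in 6.11% of the windows of the autosomal genes tested, beside 6.07% for genes called higher in males and 6.42% for genes called higher in females. It was in 4 of 43 windows (9.3%) of genes at least 4-fold higher in males and in 6 of 55 windows (10.9%) of genes at least 4-fold higher in females. Of the 24 genes with the largest differences, 17 had a window, and Sult3a1 and Slc22a26 held the motif, in capitals here. The Sult3a1 window is chr10:33857472-33857721 on the plus strand with the motif 109 bases before the start, and the Slc22a26 window is chr19:7802668-7802917 on the minus strand with the motif at 141 bases. A match describes letters only, and STAT5 sites farther from the start were not searched.
Sult3a1: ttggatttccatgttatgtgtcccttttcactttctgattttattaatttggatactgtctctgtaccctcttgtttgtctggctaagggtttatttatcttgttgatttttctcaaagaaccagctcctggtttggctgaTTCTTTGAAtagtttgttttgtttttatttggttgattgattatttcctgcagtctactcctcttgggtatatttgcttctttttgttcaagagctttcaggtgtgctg
Slc22a26: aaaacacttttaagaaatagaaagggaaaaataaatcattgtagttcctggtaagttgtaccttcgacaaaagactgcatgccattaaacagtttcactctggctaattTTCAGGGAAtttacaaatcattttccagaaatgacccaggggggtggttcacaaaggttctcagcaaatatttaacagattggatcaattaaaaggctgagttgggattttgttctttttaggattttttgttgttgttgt

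**Figure D2:**
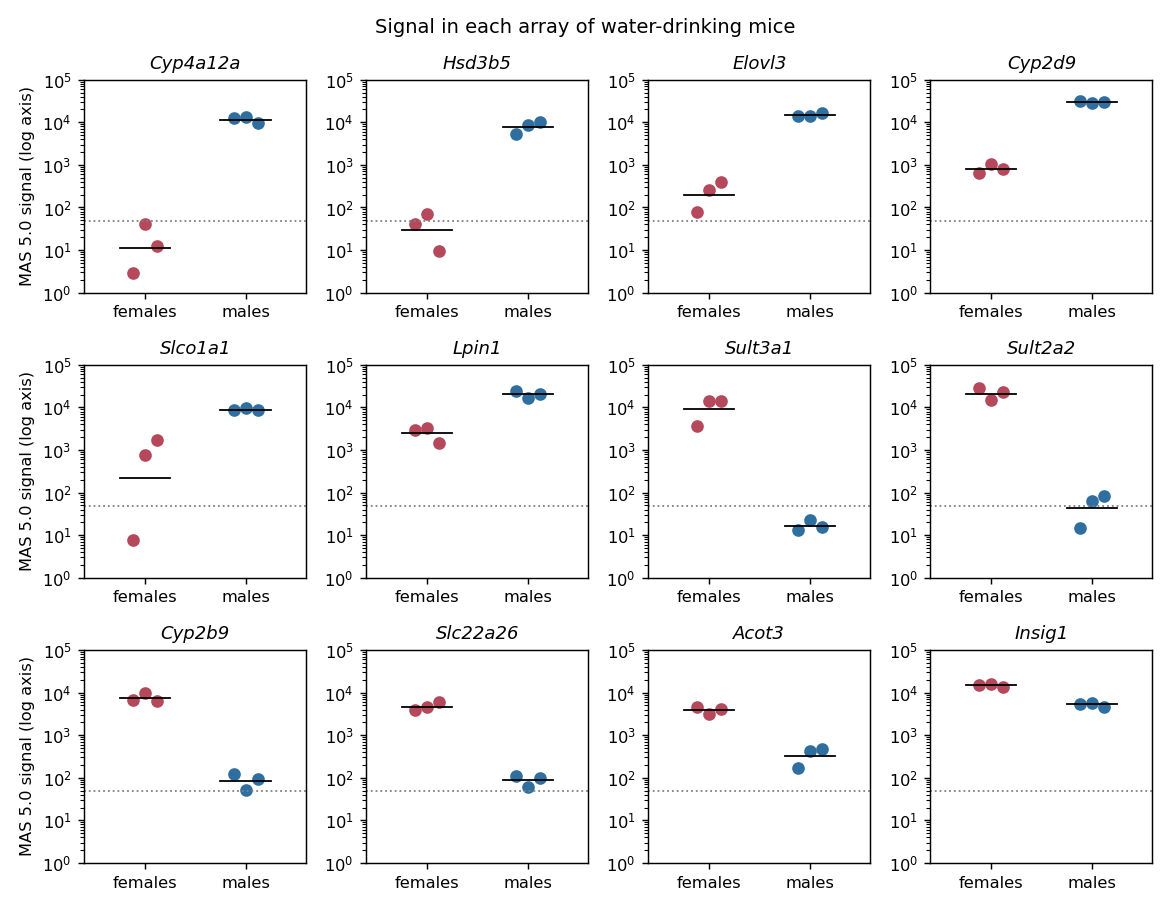
Signal (log axis) of 12 genes in each control array, with 1 point per mouse, a bar at the geometric mean of the 3 arrays of a sex and a dotted line at the filter level of 48.6. The points of the sexes do not overlap in any panel, which was a condition of the rule that named all of these genes but Lpin1 and Insig1. Cyp4a12a females and Sult3a1 males lie wholly under the dotted line, and the difference of Insig1, a gene of the cholesterol list, is smaller than those of the others shown.

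Of 22 genes of cholesterol synthesis and its control, 14 were higher in females. These genes are switched on together by SREBP2 when the endoplasmic reticulum is low in sterol, and INSIG1 and INSIG2 hold SREBP in that membrane. The called enzymes belong to early and late steps. Hmgcs1, which makes HMG-CoA, measured 24461, 35246 and 30042 in control females and 15249, 12911 and 7419 in control males, a log2 difference of -1.38 ± 0.20 (adjusted p = 0.000825, limma). Squalene synthase, Fdft1, measured 8950.2, 12868 and 11453 in control females and 4048, 4016 and 2284 in control males, a log2 difference of -1.72 ± 0.19 (adjusted p = 6.33e-05, limma). For Sqle, the squalene epoxidase, the signals were 4539, 5744 and 5829 in control females and 2282, 2294 and 1893 in control males, a log2 difference of -1.31 ± 0.14 (adjusted p = 4.12e-05, limma). The sexes did not overlap for these 3 genes. Between them in the pathway, Pmvk (-1.47 ± 0.22), Mvd (-1.70 ± 0.27), Idi1 (-0.99 ± 0.13) and Fdps (-0.87 ± 0.17) were higher in females, and so were the sterol ring enzymes Lss (-1.63 ± 0.23), Cyp51 (-1.24 ± 0.14), Msmo1 (-1.57 ± 0.26), Hsd17b7 (-0.72 ± 0.21), Sc5d (-0.68 ± 0.13) and Dhcr7 (-1.36 ± 0.17), with adjusted p from 6.91e-05 to 0.0469. Mvk had a like value (-1.36 ± 0.45) that was not called (adjusted p = 0.0814), and Hsd17b7 was called at the edge and lost in 11 of the 12 fits with 1 array removed.

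The pair of Insig genes went in opposite directions. Insig1, itself a target of SREBP, measured 15461, 15612 and 13452 in control females and 5527, 5823 and 4638 in control males, a log2 difference of -1.48 ± 0.12 (adjusted p = 4.23e-06, limma), and Insig2, which is not under SREBP control in the same way, measured 3747, 6242 and 5924 in control females and 9944, 11216 and 12514 in control males, a log2 difference of 1.11 ± 0.18 (adjusted p = 0.00184, limma). Neither pair of groups overlapped. The genes for the regulators, Srebf2 (-0.35 ± 0.28, adjusted p = 0.515) and Scap (-0.11 ± 0.14, adjusted p = 0.718), and for the biliary sterol exporter, Abcg5 (-0.03 ± 0.22) and Abcg8 (0.11 ± 0.23), were not called. The count of 14 was unchanged by quantile normalization and by median centring and lay between 13 and 14 when each of the 12 arrays was left out in turn.

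Promoter windows were found for 11 of the 14 cholesterol genes higher in females. SREBP acts at these promoters together with NF-Y, which binds CCAAT, and this pentamer was present on either strand in at least 1 window of each of the 11 genes, or 11 of their 14 windows (78.6%), against 33.8% of all 32851 windows. The sterol element spelled TCACNCCAC was present in 1.05% of all windows and, among these genes, in Hmgcs1 alone. Both motifs were chosen after the values of the genes were seen, and no match says only that these letters are not in the window. The windows of Hmgcs1 (chr13:119690101-119690350, plus strand), Idi1 (chr13:8885356-8885605, plus strand) and Cyp51 (chr5:4104698-4104947, minus strand) are shown as examples of an early, a middle and a late step, from RefSeq (GRCm38.p6) and 5′ to 3′. Capitals mark CCAAT, or ATTGG where it lies on the other strand, and in Hmgcs1 also the sterol element, which starts 137 bases before the gene's start between CCAAT boxes at 176 and 45 bases.
Hmgcs1: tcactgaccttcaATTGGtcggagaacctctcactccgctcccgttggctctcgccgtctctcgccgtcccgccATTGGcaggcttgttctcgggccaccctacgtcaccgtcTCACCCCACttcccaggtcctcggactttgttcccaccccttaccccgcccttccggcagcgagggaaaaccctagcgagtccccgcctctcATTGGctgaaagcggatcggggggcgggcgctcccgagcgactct
Idi1: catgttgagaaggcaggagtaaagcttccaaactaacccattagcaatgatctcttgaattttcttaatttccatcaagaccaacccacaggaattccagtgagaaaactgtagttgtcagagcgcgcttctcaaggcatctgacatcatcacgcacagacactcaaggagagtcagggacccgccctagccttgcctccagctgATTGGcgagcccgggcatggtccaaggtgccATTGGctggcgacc
Cyp51: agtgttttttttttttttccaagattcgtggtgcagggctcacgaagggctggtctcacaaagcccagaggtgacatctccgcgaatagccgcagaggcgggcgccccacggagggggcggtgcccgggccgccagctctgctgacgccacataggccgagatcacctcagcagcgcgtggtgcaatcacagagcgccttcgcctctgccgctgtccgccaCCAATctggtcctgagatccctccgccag

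Synthesis of fatty acids differed at fewer genes. Of 11 lipogenic genes, 3 were higher in females and 0 in males: Acss2, which makes acetyl-CoA from acetate, measured 17991, 13817 and 8841 in control females and 6188, 5277 and 2922 in control males, a log2 difference of -1.51 ± 0.25 (adjusted p = 0.00199, limma); Srebf1, the SREBP gene of lipogenesis, stood at -1.53 ± 0.36 (adjusted p = 0.0169) and Fasn, the fatty acid synthase, at -1.36 ± 0.32 (adjusted p = 0.0184). The females lay above the males on all arrays for these genes. The call of Srebf1 ended without control female 1 or control male 3 (highest adjusted p = 0.0740) and that of Fasn without control female 1 or control male 2 or 3 (highest adjusted p = 0.0725). The lipogenic enzymes Acly, at -0.41 ± 0.23 (adjusted p = 0.340), and Acaca, at -0.08 ± 0.18 (adjusted p = 0.839), which act before Fasn, were not called. Among 17 genes of elongation and desaturation, Elovl3 was higher in males, and Scd2, a stearoyl-CoA desaturase (-1.88 ± 0.38, adjusted p = 0.00726), and Fads1, the delta-5 desaturase of polyunsaturated fatty acids (-0.47 ± 0.09, adjusted p = 0.00626), were higher in females. Scd1, the main hepatic desaturase, stood at 0.17 ± 0.07 (adjusted p = 0.172).

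Of 25 genes of triglyceride assembly and lipid droplets, 8 were higher in males, among them 2 lipases, 0 were higher in females and 17 were not called. Lpin1, the phosphatidate phosphatase that makes diacylglycerol, measured 3030.4, 3249 and 1496 in control females and 24048, 16732 and 20489.5 in control males, a log2 difference of 3.04 ± 0.24 (adjusted p = 2.72e-06, limma). Its relative Lpin2 (1.40 ± 0.23, adjusted p = 0.00175) and the acyltransferase Gpat4 (0.95 ± 0.17, adjusted p = 0.00288) moved the same way. Of the coat proteins of lipid droplets, Plin5, which ties droplets to mitochondria, measured 873, 1155 and 1829 in control females and 3166, 4027 and 3055 in control males, a log2 difference of 1.47 ± 0.22 (adjusted p = 0.000964, limma). Plin4 stood at 2.22 ± 0.56 (adjusted p = 0.0256), and Cidec, which fuses droplets, measured 5.45, 37.6 and 7.94 in control females and 114, 130.1 and 172 in control males, a log2 difference of 3.54 ± 0.70 (adjusted p = 0.00647, limma). The male and female arrays were separate for each of these, but Cidec was under the filter level in all females and its floored difference was 1.49, and the call of Plin4 ended without control female 2 or 3 or control male 1, 2 or 3 (highest adjusted p = 0.0978). The lipases were Pnpla2, the adipose triglyceride lipase (0.76 ± 0.13, adjusted p = 0.00206), and Mgll, the monoacylglycerol lipase (0.79 ± 0.15, adjusted p = 0.00513). The last enzymes of synthesis were not called, Dgat1 at 0.05 ± 0.15 (adjusted p = 0.888) and Dgat2 at -0.10 ± 0.10 (adjusted p = 0.641), nor was Pnpla3, which was the lowest of the list at -1.81 ± 0.64 (adjusted p = 0.106).

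Of 16 clock genes, 2 were higher in males, 1 was higher in females and 13 were not called. The called share was 18.8%, against 9.40% of all autosomal genes tested. Dbp, an output of the clock, measured 1585, 970.4 and 215 in control females and 4270.3, 4739 and 2559.8 in control males, a log2 difference of 2.43 ± 0.59 (adjusted p = 0.0218, limma), and Arntl, a core activator that peaks at the opposite time, measured 403, 442 and 859.6 in control females and 131, 118 and 303 in control males, a log2 difference of -1.67 ± 0.40 (adjusted p = 0.0199, limma). The other one higher in males was Nr1d2 (0.71 ± 0.16, adjusted p = 0.0144). The call of Dbp ended without control female 3 or control male 1 or 2 (highest adjusted p = 0.0812), that of Arntl without control female 3 or control male 1 or 2 (highest adjusted p = 0.0846) and that of Nr1d2 without control male 1 or 2 (highest adjusted p = 0.0524). The sources used here do not give the hour at which livers were taken. The part of the clock in the differences of Lpin1, Usp2 and other genes that run with the day was not tested.

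Of 29 genes of fatty acid oxidation, 9 were higher in males by small amounts and 0 in females, against 3.90% and 5.50% of all autosomal genes tested. Cpt1a, the gate of mitochondrial import, measured 3329.6, 6188 and 6076 in control females and 10093, 9992 and 9852 in control males, a log2 difference of 1.00 ± 0.18 (adjusted p = 0.00420, limma). The carrier Slc25a20 (0.63 ± 0.16), Cpt2 (0.48 ± 0.14), the isomerase Eci1 (0.51 ± 0.12), the thiolase Acaa2 (0.29 ± 0.08), the peroxisomal enzymes Acox2 (0.49 ± 0.12), Acaa1b (0.45 ± 0.12) and Hsd17b4 (0.38 ± 0.11) and the receptor Ppara that drives such genes (0.49 ± 0.13) made up the 9, with adjusted p of 0.0203 to 0.0462 for the 8 beside Cpt1a. None of the 29 genes reached the study's 2-fold criterion. Males lay above females on all arrays for 15 of them, against 11.1% of all autosomal genes tested. Apart from Cpt1a these calls sat close to the threshold. The count of 9 fell to 1 after median centring, to 1 without control male 1 or control male 2, to 2 without control female 1 and to 5 without LDC female 2. Fgf21, a hormone of fasting (0.41 ± 0.75, adjusted p = 0.811), and Pdk4, which spares glucose in fasting (-0.82 ± 0.41, adjusted p = 0.269), were not called.

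Of 18 genes for uptake and activation of fatty acids, 5 were higher in females and 2 in males, against 5.50% and 3.90% of all autosomal genes tested. The list had no clear lean, with a median of 0.02 beside -0.05 over all autosomal genes. Vldlr, a lipoprotein receptor, measured 652, 954 and 463 in control females and 168, 60.6 and 93.7 in control males, a log2 difference of -2.75 ± 0.39 (adjusted p = 0.000623, limma). Acsl3, a long-chain acyl-CoA synthetase of lipid droplets, measured 1466, 1636 and 1675 in control females and 434, 514 and 418 in control males, a log2 difference of -1.81 ± 0.15 (adjusted p = 4.64e-06, limma). Neither gene's arrays overlapped between the sexes. Cd36, a fatty acid translocase, stood at -0.88 ± 0.18 (adjusted p = 0.00741), Fabp5 at -1.69 ± 0.29 (adjusted p = 0.00240) and Acsl5 at -0.45 ± 0.10 (adjusted p = 0.0153), and Acsm3 (0.75 ± 0.17) and Slc27a2 (0.38 ± 0.09) were higher in males. Cd36 and Fabp5 are also made by macrophages, whose 7 autosomal markers had a median of -0.95 with 0 called, and the part of these cells in the values was not tested. The calls of Acsl5, Acsm3 and Slc27a2 ended in 2 to 3 of the 12 fits with 1 array removed, without control female 1 or control male 3 (highest adjusted p = 0.0677), control female 1 or 3 or control male 2 (highest adjusted p = 0.0644) and control female 1 or control male 1 (highest adjusted p = 0.0669), in that order.

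Thioesterases, which free fatty acids from coenzyme A, split between the sexes. Peroxisomal Acot3 measured 4549, 3157 and 4045 in control females and 170.3, 418 and 466 in control males, a log2 difference of -3.59 ± 0.38 (adjusted p = 4.40e-05, limma), and its neighbour Acot4 measured 1143, 1235 and 1333 in control females and 357, 436 and 507 in control males, a log2 difference of -1.53 ± 0.22 (adjusted p = 0.000551, limma). Acot13 was also higher in females (-0.44 ± 0.11, adjusted p = 0.0224), while cytosolic Acot1 (1.66 ± 0.48, adjusted p = 0.0475) and Acot12 (0.43 ± 0.12, adjusted p = 0.0490) were higher in males. Acot13, Acot1 and Acot12 lost their calls in 2, 9 and 10 of the 12 fits with 1 array removed. Of 9 Cyp4 hydroxylases tested, Cyp4a12a, Cyp4v3 (0.87 ± 0.10, adjusted p = 0.000125) and Cyp4f15 (0.46 ± 0.12, adjusted p = 0.0293) were higher in males, and the call of Cyp4f15 ended in 5 of the 12 fits (highest adjusted p = 0.115) and after median centring. Cyp4a14, a well-known target of PPAR alpha, stood at -0.81 ± 0.37 (adjusted p = 0.218).

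**Figure D3:**
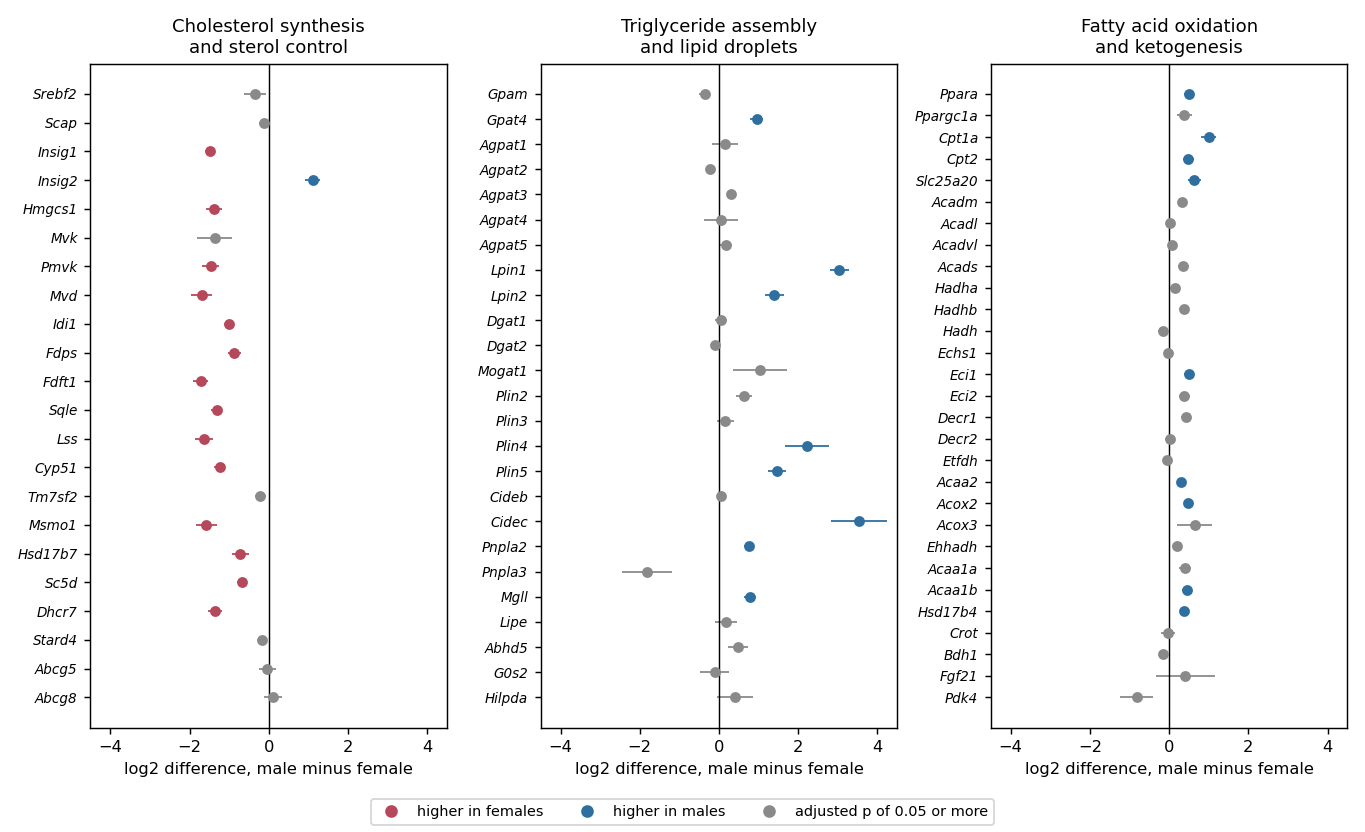
Log2 difference of control males minus control females for every tested member of 3 lipid lists, with bars of 1 standard error from limma and coloured points for genes called at an adjusted p under 0.05. The cholesterol genes lie between -0.68 and -1.72 where called, apart from Insig2 at 1.11. Called triglyceride genes run from 0.76 to 3.54, and called oxidation genes from 0.29 to 1.00.

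Bile acids are made from cholesterol by a classic route that Cyp7a1 opens and an alternative route that passes through Cyp7b1, and the sexes differed at both. Cyp7b1, an oxysterol hydroxylase, measured 2898, 3907 and 4158 in control females and 19944, 30376 and 31893 in control males, a log2 difference of 2.89 ± 0.22 (adjusted p = 1.91e-06, limma). Cyp7a1, the rate-limiting enzyme, measured 5497, 4564 and 12398 in control females and 2755, 2939 and 1396 in control males, a log2 difference of -1.59 ± 0.39 (adjusted p = 0.0217, limma), and was higher in females. The male and female arrays did not overlap for either gene, and the call of Cyp7a1 ended without control female 3 or control male 3 (highest adjusted p = 0.0946). Fgfr4, the receptor through which the gut restrains Cyp7a1, was higher in females (-0.89 ± 0.17, adjusted p = 0.00545). Cyp8b1 (0.56 ± 0.45, adjusted p = 0.522), Cyp27a1 (0.07 ± 0.10, adjusted p = 0.757) and the nuclear receptors Nr1h4 (-0.10 ± 0.11, adjusted p = 0.646) and Nr0b2 (-0.36 ± 0.47, adjusted p = 0.721) were not called. In all, 1 of 17 genes was higher in males and 2 in females, against 3.90% and 5.50% of all autosomal genes tested. The list median was 0.04 beside -0.05 over all autosomal genes.

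Transporters of bile acids and organic anions split by gene. Besides Slco1a1, males had more of Abcg2, a canalicular exporter (2202, 1892 and 1776 in control females and 4388, 5138 and 4746 in control males; 1.28 ± 0.11, adjusted p = 6.76e-06), Slc10a2 (1.17 ± 0.30, adjusted p = 0.0296) and the phospholipid flippase Abcb4 (0.59 ± 0.16, adjusted p = 0.0403). Females had more of Slco1a4 (3534, 5004 and 2688 in control females and 1843, 1927 and 1124 in control males; -1.19 ± 0.23, adjusted p = 0.00626), the basolateral exporter Abcc4 (-1.20 ± 0.25, adjusted p = 0.00836) and the prostaglandin carrier Slco2a1 (-0.40 ± 0.10, adjusted p = 0.0296). Slc10a2, Abcb4 and Slco2a1 lost their calls in 4, 6 and 5 of the 12 fits with 1 array removed. The main carriers of bile acids into and out of the hepatocyte, Slc10a1 (-0.15 ± 0.10, adjusted p = 0.448) and Abcb11 (-0.03 ± 0.10, adjusted p = 0.905), were not called.

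Of 30 Cyp2 enzymes, 8 were higher in females and 6 in males. Beside Cyp2b9 and Cyp2b13, females had more Cyp2b10, the classic target of the receptor CAR (1168, 1039 and 659.9 in control females and 435, 236 and 321 in control males; -1.53 ± 0.24, adjusted p = 0.00106), Cyp2g1 (-3.32 ± 0.32, adjusted p = 2.22e-05) and 4 Cyp2c genes, Cyp2c39 (-2.16 ± 0.26), Cyp2c38 (-1.57 ± 0.15), Cyp2c68 (-1.03 ± 0.11) and Cyp2c37 (-0.49 ± 0.13), with adjusted p from 2.49e-05 to 0.0317. Males had more Cyp2d9, Cyp2f2 (0.75 ± 0.08, adjusted p = 4.63e-05), Cyp2d13 (0.75 ± 0.15), Cyp2d22 (0.59 ± 0.13), Cyp2c55 (1.11 ± 0.25) and Cyp2u1 (1.59 ± 0.42). The calls of Cyp2c37 and Cyp2u1 ended in 4 and 4 of the 12 fits with 1 array removed. Cyp2e1, the ethanol-inducible enzyme, was not called (0.10 ± 0.07, adjusted p = 0.467).

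In the Cyp3a family, Cyp3a44 measured 738, 768 and 1415 in control females and 128, 162 and 107 in control males, a log2 difference of -2.83 ± 0.32 (adjusted p = 8.62e-05, limma). Cyp3a16 stood at -7.00 ± 1.62 (adjusted p = 0.0167), but with signals under the filter level raised to it the difference was -3.52 and no longer called (adjusted p = 0.0715). Cyp3a11 (0.35 ± 0.07, adjusted p = 0.00487) and Cyp3a25 (0.35 ± 0.09, adjusted p = 0.0276), the main forms of adult liver, and Cyp1a2 (0.55 ± 0.11, adjusted p = 0.00778) were slightly higher in males. After median centring the calls of Cyp3a11 and Cyp3a25 ended, and those of Cyp3a16 and Cyp3a25 ended in 4 and 3 of the 12 fits with 1 array removed. Among the receptors, CAR, encoded by Nr1i3 (-0.65 ± 0.18, adjusted p = 0.0366), and Ahr (-0.73 ± 0.19, adjusted p = 0.0290) were higher in females and Rxra (0.42 ± 0.12, adjusted p = 0.0387) in males, with calls that ended in 7, 4 and 9 of the 12 fits with 1 array removed. PXR, encoded by Nr1i2, was not called (0.50 ± 0.19, adjusted p = 0.129).

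Other oxidising and hydrolysing enzymes were higher in males more often. Aox3, a liver aldehyde oxidase, measured 3957, 6013 and 7052 in control females and 15223, 16760.5 and 15689.7 in control males, a log2 difference of 1.53 ± 0.18 (adjusted p = 0.000112, limma). Ces2a, a carboxylesterase, measured 5517, 5331 and 4060.0 in control females and 10642, 10515 and 10023 in control males, a log2 difference of 1.08 ± 0.12 (adjusted p = 7.17e-05, limma). Ephx2, the soluble epoxide hydrolase, measured 11457, 14303 and 12692 in control females and 23447, 20790.4 and 20287 in control males, a log2 difference of 0.75 ± 0.09 (adjusted p = 0.000131, limma). In each of these the males lay wholly above the females. Ces2b (4.67 ± 0.98; floored 2.52), Ces2e (0.82 ± 0.14), Fmo5 (0.90 ± 0.13), Aox1 (0.78 ± 0.18), Ephx1 (0.62 ± 0.15) and Ces1e (0.62 ± 0.16) completed the 9, with adjusted p from 0.000623 to 0.0313. The flavin monooxygenases Fmo1 (-1.10 ± 0.13, adjusted p = 0.000112) and Fmo2 (-1.43 ± 0.27, adjusted p = 0.00447) and the esterase Ces1g (-0.67 ± 0.14, adjusted p = 0.0104) were higher in females. The calls of Aox1, Ephx1 and Ces1e ended in 3 to 4 of the 12 fits with 1 array removed, and that of Ces2b in 1.

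Conjugation differed by route. Sulfation leaned to females, with Sult3a1, Sult2a2 and Papss2, which makes the sulfate donor (-0.98 ± 0.15, adjusted p = 0.00119), against Sult2a8 (0.57 ± 0.15, adjusted p = 0.0294) in males, among 10 genes. Glucuronidation leaned to males, where Ugt2b1 measured 8371, 8285 and 9965 in control females and 20875, 28891 and 27898 in control males, a log2 difference of 1.54 ± 0.16 (adjusted p = 3.99e-05, limma), and Ugt2b38, Ugt2b5 (0.41 ± 0.08, adjusted p = 0.00826) and Ugt2b36 (0.39 ± 0.10, adjusted p = 0.0222) were also higher. After median centring 2 of these 4 calls were left, and Sult2a8 was no longer called. Sult2a8, Ugt2b36 and Gss, a glutathione gene described next, lost their calls in 3, 5 and 4 of the 12 fits with 1 array removed. Of 29 genes of glutathione metabolism, males had more Gstp1, whose excess in male liver is well known (23973, 20328 and 20897 in control females and 53748, 51099 and 49767 in control males; 1.25 ± 0.09, adjusted p = 1.44e-06), Gsta2 (1.74 ± 0.36, adjusted p = 0.00760) and Gss (0.52 ± 0.13, adjusted p = 0.0235), and females more Mgst3 (-1.13 ± 0.24, adjusted p = 0.0103) and Gclc, which limits glutathione synthesis (-0.78 ± 0.17, adjusted p = 0.0100). Another probe set of Gss was called in the opposite direction, so Gss has no settled direction.

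In steroid metabolism, the other Hsd3b genes followed Hsd3b5 in males, with Hsd3b2 at 1.28 ± 0.21 (adjusted p = 0.00194) and Hsd3b3 at 0.81 ± 0.16 (adjusted p = 0.00660). Hsd17b13 (0.38 ± 0.09, adjusted p = 0.0177) and Akr1c12 (0.41 ± 0.11, adjusted p = 0.0407) were called at the same side and lost in 2 and 9 of the 12 fits with 1 array removed. Cyp17a1, the steroid 17-hydroxylase, was higher in females, at 1324, 1722 and 1262 in control females and 546, 382 and 497 in control males, a log2 difference of -1.60 ± 0.24 (adjusted p = 0.000926, limma). Serpina6, the corticosteroid-binding globulin of plasma, measured 15420.0, 12187 and 9889 in control females and 5905, 5674 and 3644 in control males, a log2 difference of -1.31 ± 0.21 (adjusted p = 0.00132, limma). Akr1c20 was higher in females as well (-0.78 ± 0.12, adjusted p = 0.000914), so that 5 of 19 genes were higher in males and 3 in females. Cyp17a1 and Serpina6 arrays did not overlap between the sexes.

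Enzymes of amino acid breakdown were higher in males where they differed. Tdo2, which opens the tryptophan ring, measured 26704, 29831 and 23308 in control females and 46342, 42513 and 42560.4 in control males, a log2 difference of 0.73 ± 0.09 (adjusted p = 0.000266, limma), and further along the same route Kynu (0.76 ± 0.09, adjusted p = 0.000107) and Kmo (0.64 ± 0.15, adjusted p = 0.0173) moved the same way. Hao1, the glycolate oxidase, stood at 0.99 ± 0.12 (adjusted p = 0.000148), the aminotransferases Got1 at 0.88 ± 0.17 (adjusted p = 0.00545) and Gpt2 at 0.53 ± 0.14 (adjusted p = 0.0359), the urea cycle enzyme Asl at 0.63 ± 0.14 (adjusted p = 0.0105) and Aass of lysine breakdown at 0.56 ± 0.13 (adjusted p = 0.0169). None of the 39 reached the 2-fold criterion. Other urea cycle genes were not called, for example Cps1 (0.16 ± 0.08, adjusted p = 0.286). The list holds Sdhaf3, which is no amino acid enzyme and was not called. Of the 8 calls, 5 were left after median centring, and Kmo, Aass and Gpt2 lost theirs in 2, 4 and 8 of the 12 fits with 1 array removed.

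Among 21 genes of the methionine cycle and one-carbon metabolism, 4 were higher in males and 2 in females. Aldh7a1, which also serves lysine breakdown (0.58 ± 0.08, adjusted p = 0.000740), kept its call in each fit that left out 1 array, whereas Ahcy (0.42 ± 0.10), Nnmt (0.75 ± 0.21) and Ftcd (0.45 ± 0.13) in males and Bhmt2 (-0.40 ± 0.10) and Mthfd1 (-0.43 ± 0.12) in females had adjusted p from 0.0222 to 0.0499 and lost theirs in 3 to 10 of these fits. In glucose metabolism, genes of glycogen storage differed in both directions. Gys2, the liver glycogen synthase, measured 2869, 2780.2 and 1956 in control females and 8109, 6905 and 5512 in control males, a log2 difference of 1.44 ± 0.17 (adjusted p = 0.000134, limma). The targeting subunits that bring phosphatase to glycogen were higher in females, with Ppp1r3b at -1.25 ± 0.19 (adjusted p = 0.00102) and Ppp1r3c at -1.74 ± 0.34 (adjusted p = 0.00634). Slc37a4, the glucose-6-phosphate carrier (1.06 ± 0.16, adjusted p = 0.000957), Pfkfb3 (1.50 ± 0.30, adjusted p = 0.00649) and the fructokinase Khk (0.57 ± 0.11, adjusted p = 0.00538) were higher in males, and Hk1 (-1.06 ± 0.31, adjusted p = 0.0472) in females, with a call lost in 9 of the 12 fits. Pck1, the key enzyme of gluconeogenesis, was not called (0.63 ± 0.18, adjusted p = 0.0515), and the list stood at 4 of 25 higher in males and 3 in females.

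Of 27 genes of the alcohol, aldehyde and retinoid list, 6 were higher in females and 3 in males. The median was -0.08 beside -0.05 over all autosomal genes. Cyp26a1, which degrades retinoic acid and is induced by it, measured 7811, 7234 and 5707 in control females and 3118, 1599 and 1308 in control males, a log2 difference of -1.88 ± 0.28 (adjusted p = 0.000903, limma). The dehydrogenases Rdh16f2 (-1.30 ± 0.14, adjusted p = 6.17e-05), Rdh11 (-1.20 ± 0.15, adjusted p = 0.000246) and Dhrs3 (-0.64 ± 0.10, adjusted p = 0.00136), the mitochondrial Aldh1b1 (-1.16 ± 0.19, adjusted p = 0.00152) and Lrat, which esterifies retinol for storage (-0.98 ± 0.16, adjusted p = 0.00175), were the others. Lrat is a marker of stellate cells, whose summed markers were also higher in females, and the part of these cells was not tested. Adh6-ps1 (1.29 ± 0.34), Dhrs4 (0.40 ± 0.10) and Aldh1a7 (0.39 ± 0.10) were higher in males at adjusted p of 0.0275 to 0.0333, and each lost its call in 3 to 4 of the 12 fits with 1 array removed.

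Of 25 genes for proteins that carry or handle lipid in plasma, 1 was higher in males and 3 in females, against 3.90% and 5.50% of all autosomal genes tested. Angptl4, an inhibitor of lipoprotein lipase, was higher in males at 784, 3303 and 2358 in control females and 6715, 5611 and 6448 in control males, a log2 difference of 1.77 ± 0.39 (adjusted p = 0.0116, limma), and Pltp, the phospholipid transfer protein (-1.25 ± 0.26, adjusted p = 0.00831), Apol7a (-1.42 ± 0.17, adjusted p = 0.000160) and Apof (-0.29 ± 0.07, adjusted p = 0.0225) were higher in females, with the call of Apof lost in 2 of the 12 fits with 1 array removed. The major apolipoproteins were not called, with Apob at 0.04 ± 0.08, Apoa1 at 0.10 ± 0.07 and Apoe at 0.13 ± 0.08. Of 21 major urinary protein genes listed, 3 were tested here, and Mup10 was higher in males (349, 2228 and 1610.0 in control females and 3825, 8111 and 4549 in control males; 2.27 ± 0.52, adjusted p = 0.0149), with a call that ended without control male 2 (highest adjusted p = 0.0702). In iron and heme metabolism, Alas1, the first enzyme of heme synthesis, measured 8191, 6018 and 8037 in control females and 16448, 18679 and 21425 in control males, a log2 difference of 1.35 ± 0.17 (adjusted p = 0.000241, limma), and Hamp2, a relative of hepcidin, measured 34348, 29965 and 16455 in control females and 4403, 5647 and 5915 in control males, a log2 difference of -2.28 ± 0.23 (adjusted p = 2.73e-05, limma). The females lay wholly below and wholly above the males, in that order. The zinc and manganese importer Slc39a14 (0.50 ± 0.13, adjusted p = 0.0264) was higher in males and the iron exporter Slc40a1 (-0.61 ± 0.17, adjusted p = 0.0407) in females, with calls lost in 3 and 7 of the 12 fits with 1 array removed, so that 2 of 28 genes were called in each direction. The called share of this list was 14.3%, against 9.40% of all autosomal genes tested. The metallothionein genes Mt1 (-0.51 ± 0.24, adjusted p = 0.232) and Mt2 (-0.63 ± 0.33, adjusted p = 0.296) were not called in water-drinking mice.

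Genes of the hormone pathways that act on sex-dependent liver genes were called in 8 of 30 cases, 5 higher in males and 3 in females. This share was 26.7%, against 9.40% of all autosomal genes tested. Egfr, the receptor for epidermal growth factor, measured 4553, 5594 and 7390.4 in control females and 14199, 15051 and 18062 in control males, a log2 difference of 1.45 ± 0.16 (adjusted p = 5.01e-05, limma). Esr1, the estrogen receptor alpha, measured 2017, 2964 and 3474 in control females and 879.5, 932 and 922 in control males, a log2 difference of -1.59 ± 0.16 (adjusted p = 2.89e-05, limma). Neither overlapped between the sexes. Trim24 (-1.22 ± 0.23, adjusted p = 0.00456) and Tox (-1.06 ± 0.22, adjusted p = 0.00831) were higher in females, and the liver transcription factors Cebpb (0.71 ± 0.15, adjusted p = 0.00815), Cebpa (0.46 ± 0.09, adjusted p = 0.00650) and Hnf4a (0.37 ± 0.11, adjusted p = 0.0446) and the binding protein Igfbp2 (0.62 ± 0.13, adjusted p = 0.0117) in males. Hnf4a lost its call in 8 of the 12 fits with 1 array removed. The growth hormone receptor Ghr (0.11 ± 0.09, adjusted p = 0.565), Stat5b (-0.51 ± 0.15, adjusted p = 0.0508) and Igf1 (0.01 ± 0.12, adjusted p = 0.984) were not called. Bcl6, a repressor linked to male liver, had 236, 582 and 209.6 in control females and 419.7, 828 and 1953 in control males (1.52 ± 0.48, adjusted p = 0.0692), and Cux2, its female counterpart, 208, 174 and 207 in control females and 284, 251 and 382 in control males (0.62 ± 0.28, adjusted p = 0.206), and neither was called.

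The 6 LDC arrays gave the same comparison in other mice. Of the 482 genes higher in males with water, 210 (43.6%) were called higher in LDC males, 0 were called in the opposite direction and 433 had the same sign. These 210 are 50.4% of the 417 genes (3.38% of those tested) called higher in LDC males. Of the 679 genes higher in females with water, 220 (32.4%) were called higher in LDC females and 606 had the same sign, and the 220 are 42.7% of the 515 genes (4.17%) called there. The LDC arrays separated completely, in the same direction, for 338 and 420 genes. The shares of equal sign and of separate LDC arrays over all genes tested were not counted, so these counts have no share beside them. The median log2 difference of the called genes was 0.73 with water and 0.47 with LDC for those higher in males, -0.98 and -0.45 for those higher in females. The sex difference with water chose these genes, but the LDC arrays also entered the shared spread, the filter and the choice of probe set. The LDC comparison is therefore not fully separate from that choice. Of the 24 genes with the largest differences, 24 had the same sign in LDC mice, 21 were called in the same direction there, and 19 had a smaller difference than with water. These smaller differences and the smaller medians can come from choosing genes by their difference with water alone, and this was not tested. Cyp4a12a stood at 8.45, Hsd3b5 at 7.46, Sult3a1 at -7.89 and Sult2a2 at -10.46 in LDC mice, while Elovl3 went from 6.20 to 3.68 and Abcd2 from -7.07 to -3.68. The 3 not called with LDC were Slco1a1 (3.45, adjusted p = 0.168), Tcf24 (-3.18, adjusted p = 0.0926) and Acot3 (-0.14, adjusted p = 0.899). By list, 12 of 22 cholesterol genes were called higher in LDC females, and 5 of 29 oxidation genes in LDC males. Of 25 triglyceride genes, 6 were called higher in LDC males and 1 in LDC females, against 8 and 0 with water. Amino acid breakdown had 4 of 39 genes higher in LDC males and 7 in LDC females, against 8 and 0 with water.

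The sex difference itself differed between LDC and control mice for 29 autosomal genes (0.235%) by limma's interaction contrast, 3 of them among the genes higher in control males and 13 among those higher in control females. The count was 6 with eBayes without a trend, 48 without control female 2 and between 12 and 18 without control male 3, LDC female 2 or 3 or LDC male 1, 2 or 3. Members of the metabolic lists among them were 7, Acot3, with sex differences of -3.59 with water and -0.14 with LDC that differed by 3.45 (standard error 0.54, adjusted p = 0.0167), Acot4 with -1.53 and 0.15, Cyp17a1 with -1.60 and -3.73, Alas1 with 1.35 and 0.04, Abcb11 with -0.03 and -0.82, Mt1 with -0.51 and 3.04, and Mt2 with -0.63 and 4.90. Among the regulators it was Esr1, at -1.59 with water and -0.32 with LDC. The interaction kept its call for Mt1 and Mt2 in all 12 fits with 1 array removed, and lost it in 2 of them for Acot3, 6 for Cyp17a1, 10 for Alas1 and 11 each for Acot4, Abcb11 and Esr1. The 6 genes called in opposite directions with water and with LDC, S100a8, S100a9, Ngp, Prtn3, Igkv8-30 and Nfkbiz, are genes of neutrophils, plasma cells and inflammation and include no member of a metabolic list.

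**Figure D4:**
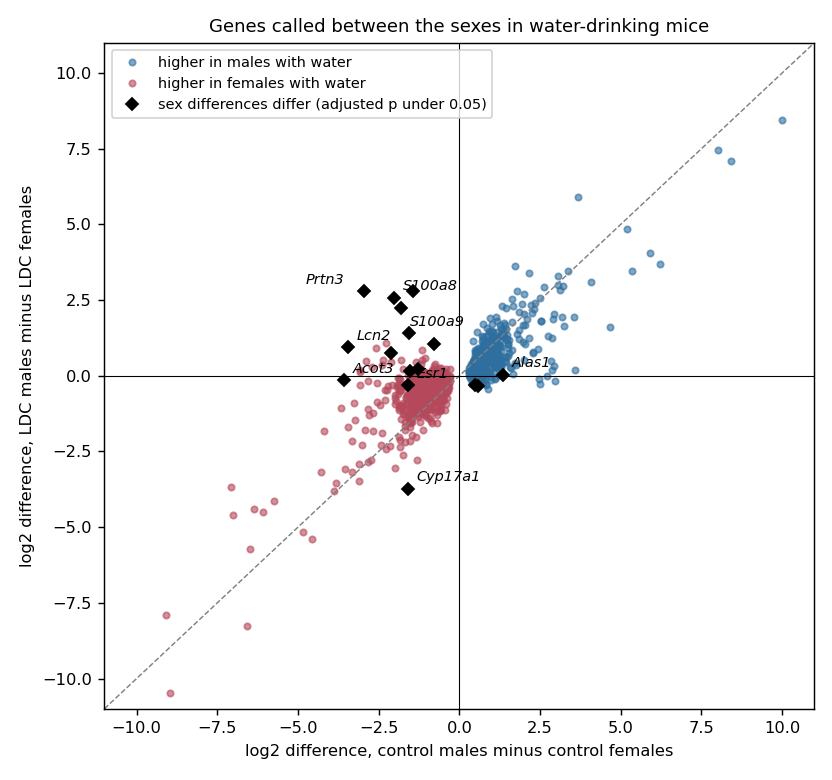
Each point is 1 of the 1161 autosomal genes called between control males and control females, with the log2 difference (male minus female) in control mice on the x axis and in LDC mice on the y axis. Most points lie in the quadrants of equal sign, 433 of 482 genes higher in control males and 606 of 679 higher in control females, and diamonds mark the genes whose sex difference passed limma's interaction contrast. The share of equal sign over all genes tested was not counted.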

How the data were processed

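Liver RNA was hybridised to 12 arrays, 3 for each of control females, control males, LDC females and LDC males, grouped by their labels. The authors computed 1 signal intensity per probe set and array with MAS 5.0 in GeneSpring 12.6.1 and deposited it on a linear scale, without detection calls, so a dim signal bounds a difference rather than sizing it. The number of arrays limits the precision. Of 45101 probe sets, 34945 name 1 gene in the platform's annotation, with 34741 symbols and the chromosome taken from a RefSeq gene table of GRCm38.p6.

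Intensities were log2 transformed, and the 27022 probe sets with a mean at or above the 40th percentile (signal 48.6) were fitted in limma 3.58.1 (R 4.3.3) with 1 mean per group (8 residual and 6.35 prior degrees of freedom, intensity trend) and Benjamini-Hochberg adjustment over all of them. A gene is its probe set with the highest mean over the 12 arrays. Genes of the X (399) and Y (5) chromosomes and 66 without a class were left out, which leaves 12350 of 12820. Arrays of a group are biological replicates per the labels.

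Members, gene lists and tests were chosen with earlier results of these data known. Named are the 12 largest differences in each direction with separate arrays and a mean of at least 500 in the higher sex, up to 3 called genes per direction of each metabolic list, called regulators, and Xist, Y-linked genes, Mt1, Mt2, S100a8 and S100a9. Further members were named after their values were seen. No set test was run. The procedure was tested on simulated data. Alternatives were no filter or one at the 20th or 60th percentile, normalization by quantiles or by centring on the median, log2(value + 32), the 6 water arrays alone, eBayes without a trend, arrayWeights, Student's t-test, counts of probe sets, a replicate block and leaving out each array. The study names Student's t-test for body composition and metabolic results, and names no test for the arrays. Setting signals under the filter level to it was added after the data were seen, as were the counts of list members under every alternative. Plots used matplotlib 3.10.9 (Python 3.11.15).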

Additional observations from a re-analysis of the deposited data

Results flagged for a closer look

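For 17 of the genes named or listed, the sex difference in LDC mice differed from that in water-drinking mice at an adjusted p under 0.05 in limma's interaction contrast, given as LDC minus water on the log2 scale. Among metabolic genes the thioesterase genes Acot3 and Acot4 had values of 3.45 (adjusted p = 0.0167) and 1.68 (adjusted p = 0.0441), beside -2.13 for Cyp17a1 (adjusted p = 0.0211), -1.31 for Alas1 (adjusted p = 0.0494) and -0.79 for the bile salt exporter gene Abcb11 (adjusted p = 0.0459), whose sex difference in water-drinking mice was not called, and for the receptor gene Esr1 the value was 1.27 (adjusted p = 0.0410). Acot3 measured 3917 ± 705, 352 ± 159, 3733 ± 1479.6 and 3357 ± 1272 (SD, n = 3) in control females, control males, LDC females and LDC males, in that order, so that control males stood apart from the other groups.

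The metallothionein genes differed by 3.55 for Mt1 (adjusted p = 0.000203) and 5.53 for Mt2 (adjusted p = 0.000133), with sex differences of -0.51 and -0.63 in water-drinking mice that were not called. Genes of neutrophils differed by 4.60 for S100a8 (adjusted p = 1.47e-05), 4.05 for S100a9 (adjusted p = 0.00228), 2.99 for Ngp (adjusted p = 0.00949), 5.75 for Prtn3 (adjusted p = 0.0277) and 4.41 for Lcn2 (adjusted p = 0.0455). In control mice these 5 were higher in females, and S100a8 measured 2549.8 ± 805, 609.5 ± 71.5, 278 ± 71.7 and 1633 ± 78.2 (SD, n = 3) in the same order of groups. The immunoglobulin genes Igkv8-30, Ighm and Jchain differed by 4.23 (adjusted p = 0.00115), 3.81 (adjusted p = 0.0321) and 3.08 (adjusted p = 0.00525), and Nfkbiz, a regulator of inflammatory genes, by 1.85 (adjusted p = 0.0390). With 1 array left out in turn, Mt1, Mt2, S100a8, S100a9, Ngp, Jchain and Igkv8-30 passed in all 12 fits, whereas Acot3 was lost in 2, Cyp17a1 in 6, Prtn3 in 7, Ighm and Nfkbiz in 9, Alas1 and Lcn2 in 10 and Acot4, Abcb11 and Esr1 in 11 of them.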

How the results depend on the processing

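With 3 arrays a group, the counts depend on how the spread is estimated. The 1161 called genes became 606 (242 higher in males and 364 in females) with the 6 water arrays alone, 585 (221 and 364) with eBayes without a trend and 3 (1 and 2) with Student's t-test after adjustment, which had 2047 genes at an unadjusted p under 0.05. Counted as probe sets they were 1788, of which 841 were higher in males. The 880 genes at the study's criterion became 1501 as probe sets and 571 with the t-test. The 430 genes called in the same direction in LDC mice became 656 as probe sets, 214 without a trend and 1 with the t-test, and the 29 genes of the interaction contrast became 6 without a trend. The 9 oxidation genes became 5 with no filter, 1 after median centring, 1 with the water arrays alone, 1 without a trend and 4 with the replicate block, and the t-test called 0 members of the oxidation, cholesterol and triglyceride lists.

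When each array was left out, the counts ran from 757 to 1225 in all, 309 to 508 higher in males, 437 to 717 higher in females, 721 to 1031 at the criterion, 311 to 414 shared with LDC mice, 12 to 48 for the interaction, 13 to 14 for cholesterol, 1 to 11 for oxidation and 7 to 8 for triglycerides. The lowest counts came without control male 2 (757 and 309) and without control female 1 (437). The interaction count was 48 without control female 2, 18 without control male 3, 16 and 15 without LDC female 2 and 3, and 14, 18 and 12 without LDC male 1, 2 and 3. The replicate block gave 1090 genes (440 and 650), and replicate numbers did not pair the arrays (r = -0.0058, 0.0029 and 0.0208 between deviations of same-numbered control arrays). Of 193 named or listed genes called, 128 kept the call in all 12 fits that left out 1 array, 0 reversed under any alternative, and calls lost numbered 17 with no filter, 11 with quantile normalization, 36 with median centring, 63 with the water arrays alone, 85 without a trend, 192 with the t-test, 14 with the block and 1 with floored signals. Medians of the lists of bile acid synthesis, anion transporters, fatty acid uptake, glutathione and apolipoproteins lay near 0 and changed sign with the scaling.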

Other observations

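Outside metabolism, 4 of 18 acute phase genes and 4 of 6 neutrophil markers were higher in control females, against 5.50% of all autosomal genes tested. Lcn2, a protein of neutrophil granules that hepatocytes also secrete in inflammation, measured 10656, 2548 and 15752 in control females and 345, 839 and 1116 in control males, a log2 difference of -3.46 ± 0.57 (adjusted p = 0.00175, limma). Orm2, an acute phase glycoprotein, measured 14088, 4186 and 23757 in control females and 2181, 2789.8 and 2748 in control males, a log2 difference of -2.13 ± 0.44 (adjusted p = 0.00876, limma), and Apcs, serum amyloid P, measured 12132, 15495 and 24320.5 in control females and 5354, 5959 and 6370.5 in control males, a log2 difference of -1.50 ± 0.18 (adjusted p = 0.000148, limma). Control female 2 was the lowest female for Lcn2 and Orm2 and still lay above every male. The other one was Itih4 (-0.30 ± 0.08, adjusted p = 0.0276), whose call ended in 4 of the 12 fits with 1 array removed, and 1 acute phase gene was higher in males, Saa4 (0.84 ± 0.13, adjusted p = 0.000971). Saa1 (-0.25 ± 0.67, adjusted p = 0.873) and Saa2 (-0.74 ± 0.88, adjusted p = 0.686), which rise most in acute inflammation, were not called.

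The neutrophil markers called were S100a8 (-2.02 ± 0.22, adjusted p = 7.11e-05), S100a9 (-1.82 ± 0.36, adjusted p = 0.00611), Ngp (-1.57 ± 0.31, adjusted p = 0.00587) and Prtn3 (-2.96 ± 0.67, adjusted p = 0.0148, lost without control female 3 or control male 1, highest adjusted p = 0.0747), while Mpo stood at 0.27 ± 0.56 (adjusted p = 0.837). Lymphocyte and plasma cell markers summed to 4746 to 12145 in females and 3713 to 4361 in males, with 0 of 6 called. Endothelial sums overlapped between the sexes (7674 to 9613 against 7233 to 8284), as did those of bile duct cells (351 to 686 against 381 to 527), with 0 members called in either list. Of 13 immediate early genes, which respond quickly to handling and stress, 1 was called (7.69%, against 9.40% of all autosomal genes tested). It was Myc, at 209, 93.1 and 317 in control females and 259, 1062 and 1368 in control males (1.98 ± 0.52, adjusted p = 0.0321). Its arrays overlapped between the sexes, and its call ended without control female 1 or 2 or control male 2 or 3 (highest adjusted p = 0.136).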
